A study of Mus musculus with 30 samples.

Results

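Eno3, Actn3, Myh2 and Ak1 encode proteins of the contractile and energy machinery of skeletal muscle, and their levels were followed in mammary gland RNA during involution, the regression of the gland after milk removal stops. Each gene had 1 probe, chosen because its only symbol in the platform's probe table is that of the gene, so 4 of the 3663 genes named by a probe of 1 symbol, and 4 of the 6267 probes on the arrays, are described. The probes were M200006768 for Eno3, M200002239 for Actn3, M300008631 for Myh2 and M200006371 for Ak1. All 4 passed the filter on missing values, which kept the 5010 probes measured in 2 or more mice of each group.

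Glands came from E2F3 +/- mice, heterozygous for the cell cycle transcription factor E2F3, and from wild type (WT) mice, with 3 mice for each genotype and time. The times were lactation (day 0) and days 1, 2, 3 and 4 of involution, which makes 10 groups and 30 arrays. Each array carried gland RNA of 1 mouse, labelled with Cy5, against RNA of a common mouse reference, labelled with Cy3. The labels name neither strain nor age, nor which of the glands was dissected. A ratio below is the deposited gland over reference ratio, a direction that is likely from the dyes but is not written in the deposited table, and a log2 difference is computed after centring each array on its median. Arrays of a group had a value for 85.3% to 96.7% of probes. The milk protein genes, which define the lactating tissue, stood above their mean over all arrays at lactation in both genotypes, by 1.51 to 1.77 on the log2 scale in E2F3 +/- glands and by 1.36 to 1.62 in WT glands (6 probes). The array labelled E2F3 +/- day 4 replicate 3 stood apart from the other 2 of its group in muscle genes. All groups share 1 estimate of the spread, so this array enters the errors of every comparison for Eno3, Actn3 and Ak1. Myh2 was listed at 0 on it and has no value there. Counts of the 4 genes that change without this array are given both ways.

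Skeletal muscle is built from fibres in which myosin filaments pull on actin filaments anchored at Z discs, with ATP supplied by glycolysis, phosphotransfer enzymes and mitochondria. Myh2 is a myosin heavy chain, the motor protein of fast oxidative fibres, and Actn3 is the alpha-actinin that crosslinks actin at the Z disc of fast fibres. Eno3 is the muscle enolase of glycolysis, and Ak1 is the cytosolic adenylate kinase that interconverts ATP, ADP and AMP and is abundant in muscle. The secretory epithelium of the mammary gland does not form such fibres, while contractile myoepithelial cells use smooth muscle proteins.

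Promoter sequence upstream of the start sites is shown because the genes moved together over the arrays. It comes from RefSeq (GRCm38.p6, plus strand), which matched 3 of the 4 genes, and covers the 250 bases before the annotated start of Eno3 (chr11:70656926-70657175), of Myh2 (chr11:67170777-67171026) and of the first and the second of the 4 start sites of Ak1 (chr2:32621508-32621757 and chr2:32625187-32625436), the Ak1 windows that hold CAGCTG. Capitals mark CANNTG, the E-box core that muscle basic helix-loop-helix factors can bind.
Eno3: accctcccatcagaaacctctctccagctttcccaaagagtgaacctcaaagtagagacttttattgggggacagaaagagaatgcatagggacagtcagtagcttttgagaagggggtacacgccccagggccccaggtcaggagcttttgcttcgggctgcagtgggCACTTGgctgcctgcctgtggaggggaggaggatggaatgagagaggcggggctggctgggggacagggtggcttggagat
Myh2: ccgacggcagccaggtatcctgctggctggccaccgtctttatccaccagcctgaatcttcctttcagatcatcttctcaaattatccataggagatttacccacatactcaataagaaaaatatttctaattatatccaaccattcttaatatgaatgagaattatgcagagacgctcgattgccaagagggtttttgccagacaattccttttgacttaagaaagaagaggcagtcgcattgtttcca
Ak1 first start: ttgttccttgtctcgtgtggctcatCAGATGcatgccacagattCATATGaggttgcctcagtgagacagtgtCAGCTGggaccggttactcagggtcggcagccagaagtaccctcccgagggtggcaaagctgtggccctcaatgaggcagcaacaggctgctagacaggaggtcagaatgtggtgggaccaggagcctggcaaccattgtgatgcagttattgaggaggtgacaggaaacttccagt
Ak1 second start: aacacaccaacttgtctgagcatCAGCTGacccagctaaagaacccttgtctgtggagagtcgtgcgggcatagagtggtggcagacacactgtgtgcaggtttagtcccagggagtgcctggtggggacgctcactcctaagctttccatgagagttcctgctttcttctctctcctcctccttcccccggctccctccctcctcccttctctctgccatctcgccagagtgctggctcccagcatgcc
CANNTG, searched on both strands, was found 1 time for Eno3, 0 times for Myh2, and 3 and 1 times in the Ak1 windows shown, each of which included 1 CAGCTG, a special case of CANNTG. Of 32851 upstream windows of the same length, 66.2% held CANNTG and 13.0% held CAGCTG. Neither TATAAA (12.4% of windows) nor the MEF2 motif (2.92%) was found in any of the 6 windows of these genes. A match is only a match of letters, and its absence says only that the letters are not in that window. Actn3 is named only.

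In the E2F3 +/- glands, Eno3 ratios of replicates 1 to 3 were 1.324, 1.978 and 1.212 at lactation, 3.993, 0.967 and 0.882 on day 1, 11.46, 5.248 and 5.026 on day 2, 13.37, 20.48 and 27.06 on day 3, and 33.48, 85.43 and 0.172 on day 4. In the WT glands, they were 0.418, 0.879 and 0.165 at lactation, 0.208, 0.645 and 0.901 on day 1, 19.61, 4.104 and 51.59 on day 2, 5.359, 5.699 and 3.65 on day 3, and 23.26, 7.778 and 30.23 on day 4. Day 1 overlapped lactation in both genotypes, and every array from day 2 on lay above the lactation arrays of its genotype except E2F3 +/- day 4 replicate 3. That array had an Eno3 ratio of 0.172 beside 33.48 and 85.43 on the other arrays of its group.

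Actn3, the other structural gene of fast fibres beside Myh2, had E2F3 +/- ratios of 6.297, 15.4 and 11.91 at lactation, 7.887, 4.299 and 5.961 on day 1, 35.94, 11.9 and 22.79 on day 2, 33.04, 40.89 and 68.98 on day 3, and 35.44, 138.9 and 0.498 on day 4. In WT it was listed at 0 on replicate 1 at lactation and on day 1. The WT ratios of replicates 2 and 3 were 3.869 and 0.535 at lactation and 2.007 and 3.554 on day 1. All 3 WT replicates were measured later, at 16.79, 6.757 and 82.05 on day 2, 12.95, 22.72 and 10.88 on day 3, and 43.6, 13.25 and 108.5 on day 4. WT arrays of days 2 to 4 lay above the measured WT lactation arrays, whereas in E2F3 +/- glands days 1 and 2 overlapped lactation and day 3 did not. On E2F3 +/- day 4, replicates 1 and 2 lay above the lactation arrays and replicate 3 below them.

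Myh2, the myosin motor, had ratios from 10.7 to 1865 where it was measured. In E2F3 +/- glands its ratios were 80.2, 0 and 75.9 at lactation, 334.1, 41.6 and 107.8 on day 1, 652.8, 332.8 and 143.6 on day 2, 690.2, 954.3 and 764.9 on day 3, and 1847, 1865 and 0 on day 4. In WT glands they were 0, 29 and 11.3 at lactation, 0, 10.7 and 137.5 on day 1, 1204, 248 and 1364 on day 2, 201.9, 176.3 and 80.3 on day 3, and 467.2, 258.6 and 952.1 on day 4. Measured arrays of days 2 to 4 lay above the lactation arrays of their genotype, while day 1 overlapped them. All 7 Myh2 ratios between 1 and 100 were whole multiples of 0.1 (tolerance 1e-06), against 3 of 24 for Actn3, 0 of 21 for Eno3 and 0 of 19 for Ak1. Many such multiples were also seen for Mb (24 of 28), Tnni2 (10 of 13), Tnnt3 (8 of 12) and Tnnc2 (7 of 14). Pvalb (5 of 29), Atp2a2 (1 of 27) and Pfkm (0 of 18), muscle list probes as well, had few. Whether the reference signal of Myh2 or of these other probes was at a lower limit on these arrays was not tested.

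Ak1 ratios in E2F3 +/- glands were 0.668, 1.095 and 0.817 at lactation, 1.138, 0.643 and 0.469 on day 1, 3.151, 1.557 and 1.572 on day 2, 3.999, 6.582 and 8.087 on day 3, and 14.62, 28.08 and 0.263 on day 4. In WT glands Ak1 was listed at 0 on lactation replicate 1 and day 1 replicate 2. The measured WT ratios were 0.305 and 0.285 at lactation, 0.324 and 0.404 on day 1, 4.43, 1.287 and 18.43 on day 2, 1.688, 2.365 and 1.437 on day 3, and 10.55, 3.333 and 11.07 on day 4. From day 2 on, every array lay above the measured lactation arrays of its genotype except E2F3 +/- day 4 replicate 3.

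**Figure D1:**
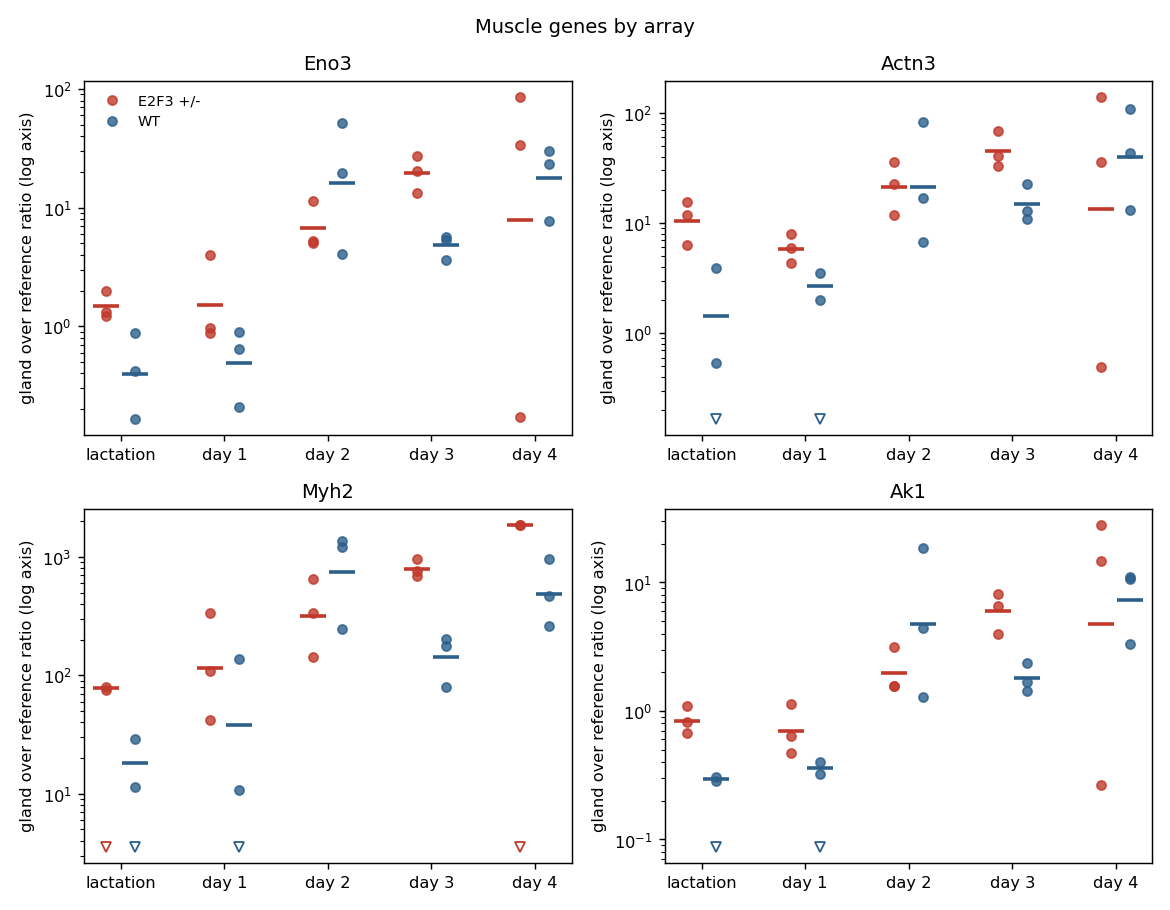
Deposited gland over reference ratio (log axis) of Eno3, Actn3, Myh2 and Ak1 on each array, by time, with E2F3 +/- left of WT, bars at the geometric mean of measured arrays and open triangles for values listed at 0. Points of days 2 to 4 lie mostly above those of lactation and day 1, and 1 E2F3 +/- day 4 array lies at the bottom of each panel.

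The order of the groups differed between the 4 genes and depended on 1 array. For Eno3 the geometric mean of centred ratios was highest in E2F3 +/- day 3 (17.6) and lowest in WT lactation (0.389). For Actn3 it ran from 40.8 in E2F3 +/- day 3 down to 1.44 in WT lactation, and for Ak1 from 6.52 in WT day 4 down to 0.295 in WT lactation. For Myh2 it ran from 1485 in E2F3 +/- day 4, over 2 arrays, down to 18.1 in WT lactation. With replicate 3 of E2F3 +/- day 4 left out, that group was the highest for each gene, at 42.8 for Eno3, 56.1 for Actn3 and 16.2 for Ak1. WT lactation was the lowest group for each gene and WT day 1 the next. The largest step between neighbours was 1.63 on the log2 scale for Eno3, 1.14 for Actn3 and 1.08 for Ak1, each under the residual SD of the gene (1.77, 1.71 and 1.41). For Myh2, 1 of 9 steps exceeded its residual SD of 1.15, the step of 1.22 between E2F3 +/- day 2 and WT day 3. Without that array the residual SDs were 1 for Eno3, 1.1 for Actn3 and 0.81 for Ak1, and 4, 1 and 4 of the 9 steps exceeded them.

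Within E2F3 +/- glands, the change from lactation passed the test for 3 genes on day 3 and for 1 on day 4. All tests are limma's, with Benjamini-Hochberg adjustment over 5010 probes, and errors after ± are standard errors. On day 1, 0 of 4 genes were higher, beside 23.2% of all tested probes, and 0 had an unadjusted p under 0.05. Of all tested probes 1164 were higher and 1019 lower on that day, against 909 and 1336 when arrays were centred on the median of all values. On day 2, 0 of 4 were higher (0 at an unadjusted p under 0.05), beside 23.7% of all tested probes, and Myh2 came nearest with a log2 difference of 1.96 ± 0.94 (adjusted p = 0.0918, n = 3 and 2). The day 2 count was 1 of 4 without E2F3 +/- day 4 replicate 3, from Eno3 (2.14, adjusted p = 0.0217), beside 25.9% of all tested probes. On day 3, 3 of 4 were higher, beside 34.2% of all tested probes. Eno3 rose by 3.6 ± 1.32 (adjusted p = 0.0213), Myh2 by 3.22 ± 0.94 (adjusted p = 0.00685, n = 3 and 2) and Ak1 by 2.69 ± 1.04 (adjusted p = 0.0289). Actn3 had a difference of 1.98 ± 1.26 (adjusted p = 0.163). The Eno3 and Ak1 calls of day 3 were lost without E2F3 +/- lactation replicate 1 or 3 or day 3 replicate 2 or 3 (adjusted p = 0.0501 to 0.0605 for Eno3 and 0.0602 to 0.0799 for Ak1), and Myh2 alone then passed. All 4 passed on day 3 without E2F3 +/- day 4 replicate 3, Actn3 with adjusted p = 0.0336, beside 35.6% of all tested probes.

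On day 4 of the E2F3 +/- course, 1 of 4 genes was higher, beside 33.2% of all tested probes. This was Myh2, by 4.27 ± 1.03 (adjusted p = 0.00147), with replicate 3 listed at 0 and left out of the fit (n = 2 and 2). Eno3 had a difference of 2.18 ± 1.32 (adjusted p = 0.138), Ak1 of 2.26 ± 1.04 (adjusted p = 0.0582) and Actn3 of 0.12 ± 1.26 (adjusted p = 0.936). Without replicate 3 all 4 passed, beside 33.4% of all tested probes, with differences of 4.88 for Eno3 (adjusted p = 2.97e-05), 2.44 for Actn3 (adjusted p = 0.0193) and 4.28 for Ak1 (adjusted p = 1.64e-05).

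Within WT glands, all 4 genes were higher on day 2 than at lactation. On day 1, 0 of 4 were higher, beside 18.5% of all tested probes, and 0 had an unadjusted p under 0.05. On day 2, 4 of 4 were higher, beside 31.8% of all tested probes. Eno3 rose by 5.17 ± 1.32 on the log2 scale (36.1-fold, adjusted p = 0.00191), and Myh2 by 5.16 ± 0.94 (35.8-fold, adjusted p = 0.000146, n = 3 and 2). Ak1 rose by 3.81 ± 1.17 (14-fold, adjusted p = 0.00775, n = 3 and 2), and Actn3 by 3.68 ± 1.41 (12.8-fold, adjusted p = 0.0272, n = 3 and 2). The folds of Actn3, Myh2 and Ak1 leave out the lactation array listed at 0. With missing values set to the lowest ratio, the Myh2 call was lost (adjusted p = 0.0552). The Actn3 call was lost without WT lactation replicate 3 (2.25, adjusted p = 0.272) or WT day 2 replicate 3 (2.75, adjusted p = 0.125).

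On day 3 of the WT course, 2 of 4 genes were higher, beside 17.4% of all tested probes. Of all tested probes 873 were higher and 1081 lower, against 661 and 1386 with that other centring and 1112 and 915 without centring. Eno3 rose by 3.49 ± 1.32 (adjusted p = 0.0395) and Myh2 by 2.83 ± 0.94 (adjusted p = 0.023, n = 3 and 2). Actn3 had a difference of 3.22 ± 1.41 (adjusted p = 0.073) and Ak1 of 2.46 ± 1.17 (adjusted p = 0.0945), each with n = 3 and 2. Leaving out single arrays of these 2 groups left 0 to 2 genes passing: Eno3 was lost without WT lactation replicate 1 or 3 or any WT day 3 array, and Myh2 without WT lactation replicate 3 or WT day 3 replicate 1 or 2. All 4 passed on WT day 3 without E2F3 +/- day 4 replicate 3 (adjusted p = 0.00074 to 0.019), beside 19.6% of all tested probes. The scatter of that array enters the errors of Eno3, Actn3 and Ak1, while Myh2 has no value on it. The WT day 4 values were among those that chose the genes, and are given as a description. They were 5.34 ± 1.32 for Eno3 (40.4-fold), 4.62 ± 1.41 for Actn3 (24.7-fold), 4.58 ± 0.94 for Myh2 (24-fold) and 4.47 ± 1.17 for Ak1 (22.1-fold), and 25.4% of all tested probes were higher on that day. The WT days share the lactation arrays, so their differences are not independent of each other.

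**Figure D2:**
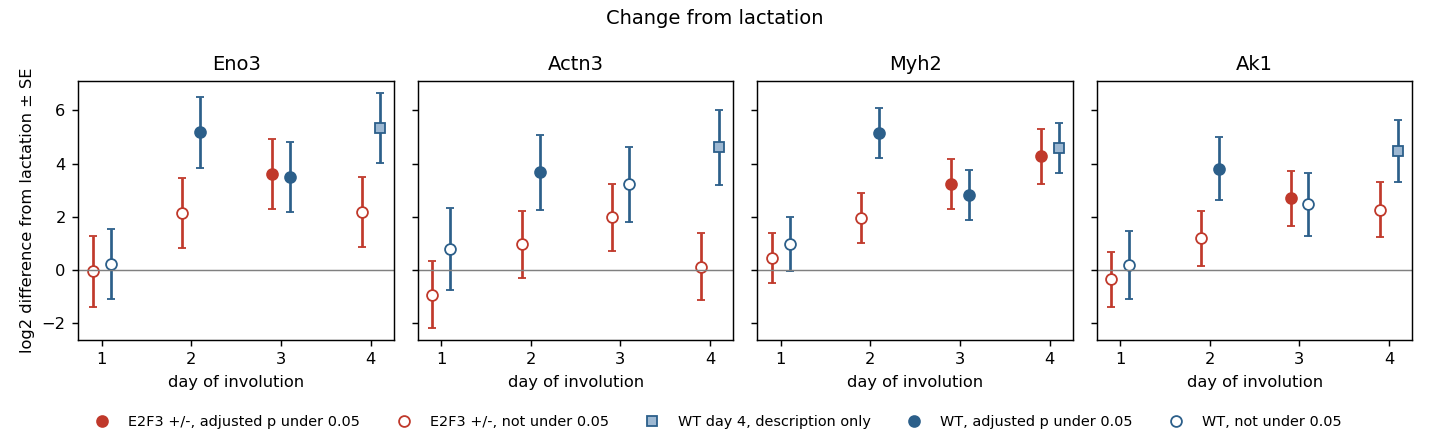
Log2 difference from lactation of the same genotype with its standard error on days 1 to 4, E2F3 +/- left of WT, with filled circles where the limma adjusted p was under 0.05 and squares for WT day 4, which is a description only. WT differences reach 5.17 for Eno3 on day 2, while E2F3 +/- differences of day 2 are 2.14 or less.

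Over all 4 days, the F test passed for 2 of 4 genes in E2F3 +/- glands, beside 77.1% of all tested probes. The E2F3 +/- adjusted p values were 0.003 for Myh2, 0.0394 for Ak1, 0.0576 for Eno3 and 0.242 for Actn3. The same test in WT glands includes day 4, whose values helped to choose the genes. It passed for 82.0% of all tested probes there, and nothing is read from the genes' own values. Without E2F3 +/- day 4 replicate 3 the E2F3 +/- count was 4 of 4, and it was 1 of 4 without each of 8 other single arrays.

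E2F3 +/- and WT glands did not differ in any of the 4 genes past the threshold at any time. At lactation 0 of 4 passed (0 at an unadjusted p under 0.05), beside 0.379% of all tested probes. The differences, E2F3 +/- minus WT, were 1.9 ± 1.32 for Eno3 (adjusted p = 0.951), 2.85 ± 1.41 for Actn3 (adjusted p = 0.698, n = 3 and 2), 2.09 ± 1.03 for Myh2 (adjusted p = 0.7, n = 2 and 2) and 1.5 ± 1.17 for Ak1 (adjusted p = 0.964, n = 3 and 2). The measured E2F3 +/- lactation arrays lay above the WT ones for each gene, at 1.212 to 1.978 against 0.165 to 0.879 for Eno3. On day 1, 0 of 4 passed (0 at an unadjusted p under 0.05), beside 0.659% of all tested probes, with differences of 0.96 to 1.63. On day 2, 0 of 4 passed (0 at an unadjusted p under 0.05), beside 12.7% of all tested probes, with differences of -1.14 ± 1.32 for Eno3, 0.14 ± 1.26 for Actn3, -1.11 ± 0.84 for Myh2 and -1.13 ± 1.04 for Ak1.

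On day 3 of involution, the E2F3 +/- arrays lay above the WT arrays for all 4 genes. None passed, beside 0% of all tested probes, and Myh2 alone had an unadjusted p under 0.05 (limma). The differences were 2.01 ± 1.32 for Eno3 (adjusted p = 0.484), 1.61 ± 1.26 for Actn3 (adjusted p = 0.552), 2.47 ± 0.84 for Myh2 (adjusted p = 0.321) and 1.73 ± 1.04 for Ak1 (adjusted p = 0.455). Array quality weights, which count arrays with more scatter for less, turned these into 4 of 4 passing, with 844 probes higher and 916 lower of all tested, and their fit stopped before it had converged. On day 4, 0 of 4 passed (0 at an unadjusted p under 0.05), beside 1.12% of all tested probes. WT day 4 values helped to choose the genes, so this comparison is a description. The day 4 differences were -1.26 ± 1.32 for Eno3, -1.66 ± 1.26 for Actn3, -0.72 ± 1.04 for Ak1 and 1.77 ± 0.94 for Myh2. Without E2F3 +/- day 4 replicate 3 the first 3 were 1.44, 0.66 and 1.31, opposite in sign, and the share of all tested probes that passed was 15.5%. The count of the 4 genes stayed at 0 for genotype at every time without this array, with adjusted p from 0.15 to 0.291 on day 3.

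The test of whether the change from lactation differed between genotypes passed for 0 of 4 genes on each day. It passed for 0.379% of all tested probes on day 1, 0% on day 2, 0.240% on day 3 and 0.319% on day 4. At an unadjusted p under 0.05 the counts were 0, 1, 0 and 1, from Myh2 on day 2 and Actn3 on day 4. The day 2 calls in WT glands and their absence in E2F3 +/- glands are therefore not shown to differ. The day 4 test and the test over all times include WT day 4 values, which helped to choose the genes, and are descriptions. Over all times the genotype difference passed for 0 of 4 genes (1 at an unadjusted p under 0.05, Myh2), beside 0.619% of all tested probes. It was 1.36 ± 0.41 for Myh2 (adjusted p = 0.133, n = 13 and 13), 0.63 ± 0.59 for Eno3, 0.82 ± 0.59 for Actn3 and 0.47 ± 0.49 for Ak1. Myh2 passed without WT day 1 replicate 3 (1.74, adjusted p = 0.0275). The difference over all times without E2F3 +/- day 4 replicate 3 was 1.17 for Eno3, 1.28 for Actn3, 1.36 for Myh2 and 0.87 for Ak1 (adjusted p = 0.0585 to 0.0912), beside 2.65% of all tested probes, and the test of differing change on day 2 had adjusted p from 0.119 to 0.21.

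The 4 genes were put forward for their spread within groups, so that spread is a description and not a result. The residual SD about group means was 1.77 for Eno3, 1.71 for Actn3, 1.15 for Myh2 and 1.41 for Ak1 on the log2 scale, against a median of 0.4 over tested probes. At or below these values lay 99.9%, 99.9%, 98.4% and 99.5% of tested probes. Leaving out E2F3 +/- day 4 replicate 3 gave SDs of 1, 1.1, 1.15 and 0.81, against a median of 0.38, with 98.2%, 99%, 99.1% and 95.6% of probes at or below them. In E2F3 +/- day 4 the highest Eno3 array was 497 times the lowest, and in WT day 2 it was 12.6 times the lowest. Groups with closely spaced Eno3 arrays were also seen, at 1.63 times in E2F3 +/- lactation and 1.56 times in WT day 3.

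The 4 genes followed each other from array to array, inside groups as well as between them. The array with the highest centred value was the same for all 4 genes in 6 of the 10 groups, of which WT lactation and WT day 1 had 1 gene measured on all 3 arrays. In E2F3 +/- day 4 it was replicate 2 for Eno3, Actn3 and Ak1. Myh2 was highest there on replicate 1 by centred log2 values (10.55 against 10.52) and on replicate 2 by deposited ratios (1865 against 1847). The whole order of the 3 arrays was the same in 3 of 10 groups, over the genes measured on all 3. Over the arrays that measured both, Pearson r of log2 values was 0.968 between Eno3 and Ak1 (rho 0.991, n = 28), 0.942 between Eno3 and Actn3 (rho 0.935, n = 28) and 0.934 between Eno3 and Myh2 (rho 0.935, n = 26). The other 3 pairs had r from 0.869 to 0.903. Leaving out the 2 arrays farthest from the median of the first gene gave r from 0.824 to 0.972 over the 6 pairs. For deviations from group means, r was 0.954 for Eno3 and Actn3, 0.951 for Eno3 and Ak1, 0.932 for Actn3 and Ak1, and 0.594 to 0.724 for the pairs with Myh2. Without E2F3 +/- day 4 replicate 3 the first 3 were 0.88, 0.84 and 0.812, and Myh2 has no value on that array. These values share the arrays, the reference RNA and the centring of each array, and are descriptions. The SD of the log2 difference between Eno3 and Ak1 over arrays was 0.76, against 2.43 for Eno3 and 1.9 for Ak1 themselves.

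**Figure D3:**
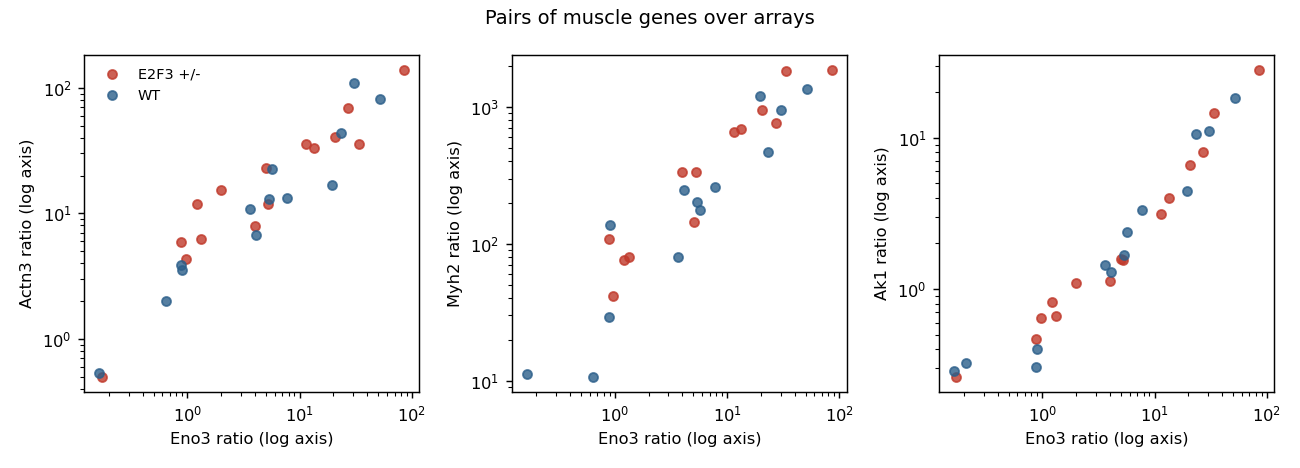
Deposited ratio of Actn3, Myh2 and Ak1 against that of Eno3 on each array where both were measured (log axes), with E2F3 +/- and WT arrays in separate colours. Points of both genotypes fall along one band, with r of 0.942, 0.934 and 0.968.

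A score was made for each array as the mean, over those of the 4 genes measured there, of the log2 ratio less its mean over arrays, to look for other genes with the same pattern. On 5 arrays it rests on 1 to 3 genes. It ran from -4.03 on E2F3 +/- day 4 replicate 3, from 3 genes without Myh2, to 3.48 on E2F3 +/- day 4 replicate 2. Among 2467 other probes with a single symbol and a value on all 30 arrays, the median r with the score was 0.098, and the 10 highest were Pvalb (0.933), Atp2a2 (0.926), Pfkm (0.925), Slc25a4 (0.917), H19 (0.914), Actg2 (0.905), Tpm1 (0.904, probe M300008225), Mb (0.889), Svil (0.885) and Aldoa (0.883). Pvalb is the calcium buffer parvalbumin of fast fibres, Atp2a2 the sarcoplasmic calcium pump of slow and cardiac muscle, Pfkm the muscle phosphofructokinase, and Mb the oxygen store myoglobin. Ranked by deviations from group means, 8 of these 10 were again in the top 10, led by Tpm1 (0.965), a tropomyosin of thin filaments, and Pfkm (0.931), while Perp (0.873) and Cryab (0.868) took the other 2 places. Of each top 10, 8 and 7 probes were in the muscle lists, with H19, Slc25a4 and Aldoa counted there. Actg2 was instead in the list of smooth muscle and myoepithelium. Of the 2467 probes, these lists hold 4 of thin filament and Z disc, 2 of calcium handling, 23 of energy supply and 3 of regulators. Perp, a desmosome-associated membrane protein, had r of 0.873 within groups but -0.324 over the 30 arrays. The top 10 over arrays without E2F3 +/- day 4 replicate 3 held the same 10 probes, while 7 of the 10 by deviations stayed, led by Tpm1 (0.893) and Pfkm (0.859), and 5 were in the muscle lists. H19 (0.691), Perp (0.693) and Cryab (0.663) then left it, and Pacsin3 (0.788), Zfand5 (0.76) and Mfn2 (0.733) came in.

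Pvalb had the highest r with the score and was picked for it, so its array pattern and its differences from lactation are descriptions. In E2F3 +/- glands it stood at 3.714, 2.9 and 2.2 at lactation and at 30.94, 62.14 and 1.081 on day 4, and in WT glands at 1.1, 2.1 and 0.525 at lactation and at 20.01, 5.856 and 50.27 on day 2. The order of the arrays within E2F3 +/- day 4 and WT day 2 was that of Eno3. On E2F3 +/- day 2 (34.64, 8.78 and 12.9) and WT day 4 (5.723, 6.833 and 37.75) the order of Pvalb was not that of Eno3. Pvalb rose in E2F3 +/- glands on day 2 by 2.4 (adjusted p = 0.048) and day 3 by 2.91 (adjusted p = 0.0135), and in WT glands on day 2 by 3.9 (adjusted p = 0.00172).

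Fast fibre troponins, which switch contraction on when calcium binds, also rose on some days. In E2F3 +/- glands, 0, 1, 2 and 1 of 3 probes rose on days 1 to 4, and in WT glands 0, 3, 1 and 3. The shares of all tested probes on these days are those given for the 4 genes. On day 3 in E2F3 +/- glands, beside 34.2% of all tested probes, those that rose were Tnni2 by 3.14 (adjusted p = 0.00278) and Tnnc2 by 3.27 (adjusted p = 0.0464). Tnnt3 had a difference of 3.1 there (adjusted p = 0.082). On the single-call days it was Tnni2 that passed, on E2F3 +/- day 2 (2.23, adjusted p = 0.03) and day 4 (4.19, adjusted p = 0.000557) and on WT day 3 (2.76, adjusted p = 0.0204). In WT glands all 3 rose on day 2, Tnnt3 by 4.61 (adjusted p = 0.0258), Tnni2 by 4.12 (adjusted p = 0.000678) and Tnnc2 by 3.93 (adjusted p = 0.034). The WT differences of days 2 to 4 leave out lactation replicate 1, listed at 0 for all 3 probes (n = 3 and 2). On E2F3 +/- day 4 replicate 3, Tnnt3 had a ratio of 1.065, against 508.7 and 1617 on replicates 1 and 2, and Tnni2 was listed at 0, against 315.3 and 1381. The Tnni2 difference of that day therefore leaves this array out, while those of Tnnt3 and Tnnc2 (ratio 1.713) include it.

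In the muscle lists together (contractile proteins, Z disc, calcium handling, energy supply and regulators, without the 4 genes), 59 of 186 genes were on the arrays and 49 of 74 probes were tested. In E2F3 +/- glands, 5, 11, 31 and 28 of the 49 rose on days 1 to 4 and 7, 4, 3 and 2 fell, with median differences of 0.47, 1.1, 1.69 and 1.43. Of all tested probes 23.2%, 23.7%, 34.2% and 33.2% rose on these days, so the muscle share of days 1 and 2 was not above that of all probes. In WT glands, 3, 29, 7 and 39 rose and 6, 3, 3 and 3 fell, with medians of 0.19, 1.58, 1.05 and 2.06, beside 18.5%, 31.8%, 17.4% and 25.4% of all tested probes, and the muscle share of days 1 and 3 was below these. Without E2F3 +/- day 4 replicate 3, 8, 20, 38 and 41 of the 49 rose in E2F3 +/- glands, beside 26.0%, 25.9%, 35.6% and 33.4% of all tested probes, and 5, 31, 20 and 39 in WT glands, beside 20.5%, 32.6%, 19.6% and 27.4%. Over all tested probes the median difference was 0.12, 0.14, 0.12 and -0.01 in E2F3 +/- glands and -0.07, 0.11, 0.08 and 0.06 in WT glands. Fabp3, a fatty acid carrier that milk-producing epithelium also makes, fell on every day in both genotypes, with log2 differences of -6.57 to -5.37 in E2F3 +/- glands and -7.18 to -5.83 in WT glands. Cox6a2, also in these lists, had a WT day 1 difference of -4.07 (limma adjusted p = 0.000946, n = 2 and 3). On WT days 2 to 4 its differences were -0.87, -1.81 and -0.65 (adjusted p = 0.33, 0.0692 and 0.47). On E2F3 +/- days 1 and 2 they were -1.44 and 0.29 (adjusted p = 0.128 and 0.762). Its genotype difference at lactation was -1.95 (adjusted p = 0.506), opposite in sign to those of the 4 genes. Probes of Gapdh, which every cell uses, make 7 of the 49, and without them 25 of 42 rose in E2F3 +/- glands on day 3 and 29 of 42 in WT glands on day 2.

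Tpm1 showed that the pattern depended on the probe. Probe M300008225 was among the 10 most like the score, so its differences are descriptions. It rose by 2.81 on E2F3 +/- day 3 (adjusted p = 0.0123) and by 2.93 on WT day 2 (adjusted p = 0.0091). Probe M300008222 rose on day 1, by 2.69 in E2F3 +/- glands (adjusted p = 1.81e-05) and by 2.14 in WT glands (adjusted p = 0.000237), and had a difference of -0.33 on WT day 2 (adjusted p = 0.469). Tpm1 is also made outside muscle, and the transcripts that each probe reads are not given here.

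Paralogs of the 4 genes that many cell types use were measured on all arrays. Actn4, the non-muscle alpha-actinin, rose on day 1, by 1.28 in E2F3 +/- glands (adjusted p = 0.00408) and by 1.24 in WT glands (adjusted p = 0.0055), and again on E2F3 +/- days 2 and 3 (1.07 and 0.9, adjusted p = 0.0122 and 0.0223) and WT days 3 and 4 (1.28 and 0.83, adjusted p = 0.00427 and 0.0373). It had a difference of 0.62 on E2F3 +/- day 4 (adjusted p = 0.0974) and of 0.11 on WT day 2 (adjusted p = 0.782). Myh9, a non-muscle myosin heavy chain, rose on all 4 E2F3 +/- days, by 1.06, 1.04, 1.28 and 0.81 (adjusted p = 0.0162, 0.0172, 0.00319 and 0.0368). In WT glands it passed on none, with differences of 0.77, 0.06, 0.57 and 0.48 (adjusted p = 0.077, 0.889, 0.176 and 0.216). On E2F3 +/- day 4 replicate 3, Actn4 had a ratio of 3.426 against 1.517 and 1.078 on replicates 1 and 2, and Myh9 of 1.076 against 0.445 and 0.455, so both were higher there while the muscle genes were low. No tested probe carried the name of another enolase or adenylate kinase.

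The 25 muscle list probes that failed the filter were those with many values listed at 0, among them probes of Ttn, Ryr1, Casq1 and Actn2, named after their values were seen. In E2F3 +/- glands 58.7%, 78.7%, 82.7%, 94.7% and 81.3% of their values were measured from lactation to day 4, and in WT glands 21.3%, 42.7%, 85.3%, 80.0% and 88.0%. For all probes the share was 88.4% at lactation and 96.7% on day 3 in E2F3 +/- glands, and 85.3% at lactation and 92.5% on day 2 in WT glands. The folds above come from probes with lactation values, and genes listed at 0 there have no fold. Among 52 ribosomal protein probes, 3 were also listed at 0, with 3 values at 0 in all over the 30 arrays. What a value at 0 stands for was not tested.

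Other cell types were set beside the muscle score by their gene lists. For deviations from group means, r with the score was 0.885 to 0.97 for the 4 muscle lists with at least 2 probes on all arrays, 0.749 for smooth muscle and myoepithelium (3 probes), 0.457 for adipocytes (12 probes), 0.098 for fibroblasts (12 probes) and -0.02 for macrophages (12 probes). It was 0.144 for endothelium (4 probes), 0.315 for luminal epithelium and -0.456 for milk proteins (6 probes each). Over all 30 arrays the muscle lists had r of 0.574 (thin filament and Z disc), 0.892, 0.918 and 0.983, and fibroblasts and macrophages had 0.644 and 0.614, above the first of these. Without E2F3 +/- day 4 replicate 3 the within-group r was 0.721 to 0.917 for the muscle lists, 0.704 for smooth muscle and myoepithelium, 0.451 for adipocytes, 0.541 for luminal epithelium, -0.072 for endothelium, -0.176 for fibroblasts, -0.47 for macrophages and 0.15 for milk proteins. Probes of 2 lists, brown adipocytes and nerve, gave -0.31 and 0.596 from 2 probes each.

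**Figure D4:**
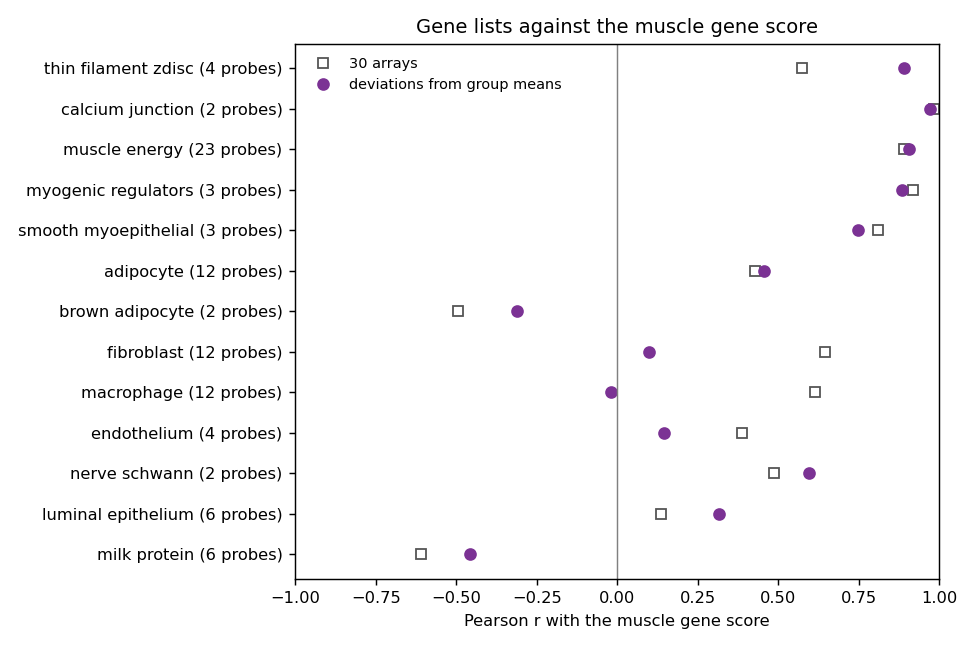
Pearson r of each gene list's mean centred log2 ratio with the score of Eno3, Actn3, Myh2 and Ak1, over 30 arrays (open squares) and for deviations from group means (filled circles), with the number of probes on all arrays. In deviations the 4 muscle lists lie at 0.885 or above, smooth muscle and myoepithelium at 0.749 and nerve at 0.596. Fibroblasts and macrophages lie at 0.098 and -0.02. Over 30 arrays thin filament and Z disc lie at 0.574, below fibroblasts (0.644) and macrophages (0.614).

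On E2F3 +/- day 4 replicate 3, all 28 tested probes of muscle energy supply were below the mean of the other 2 arrays (median -1.81), as were all 3 of calcium handling (median -4.66). In the thin filament and Z disc list 10 of 12 were lower (median -3.35). Milk protein probes were higher there in 6 of 6 cases (median 1.71). Other lists were lower as well, with 9 of 13 macrophage probes (median -1.22), 13 of 16 fibroblast probes (median -0.38) and 12 of 15 adipocyte probes (median -0.47). Of all 5004 tested probes measured there 2087 were lower, with a median of 0.18. In whole-gland RNA, fewer muscle cells and less RNA per muscle cell cannot be told apart. Whether the amount of muscle in the dissected tissue differed between arrays was not tested.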

How the data were processed

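RNA of 30 mammary glands, 1 array each, was compared with a common reference on spotted 70-mer arrays. The authors deposited 1 linear ratio per probe and array, and the RNA came through CsCl ultracentrifugation and amplification, per the labels' protocols. The labels do not say how spots were scanned, background-corrected or normalized, and no genome build is named. Ratios listed at 0 (13146) or 0.01 (1223), 7.64% of values, were taken as missing. The ratios were log2 transformed and each array was centred on the median of its measured values (1 to 1.27). The centring was settled after results under another median, that of all deposited values, had been seen, and the median of probes measured on all arrays was tried as well. All 3 are compared in the closing section.

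Of 6267 probes, 3997 carry 1 symbol, 115 several and 2155 none. Probes with a value on at least 2 of 3 arrays in every group (5010, of which 3968 on all arrays) were fitted with limma 3.58.1 in R 4.3.3, with 1 mean for each of 10 groups, up to 20 residual degrees of freedom and exact least squares for each pattern of missing values. Those degrees of freedom were 20 for Eno3, 18 for Actn3, 16 for Myh2 and 18 for Ak1. The threshold was an adjusted p (Benjamini-Hochberg) under 0.05. The fit was tested on simulated data of the same layout and found part of the smallest changes put in and most of the larger ones. Python 3.11.15, pandas 2.3.3, numpy 2.4.6 and matplotlib 3.10.9 made the tables and figures. Per the labels every array holds a different mouse, so the p values rest on the spread between mice, and precision is limited by the 3 mice of a group.

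The 4 genes and all gene lists were chosen with earlier results of these data known. Named besides the 4 genes are the 10 probes most like their score by each measure, muscle list genes and paralogs. Of the muscle list genes named, Ttn, Ryr1, Casq1 and Actn2 had probes that failed the filter. Same-numbered arrays of different groups had a median r of 0.009 for deviations from group means (135 pairs), so numbers were not taken to pair mice. Alternatives were the centring, quantile normalization, missing values set to the lowest ratio, stricter and looser filters, array weights, a fit of only the groups compared, a replicate block and leaving out each array.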

Additional observations from a re-analysis of the deposited data

How the results depend on the processing

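Of 994 values of single genes under the alternatives, 908 kept their direction and side of the threshold, 26 lost the call, 34 gained it and 26 changed sign. The cause was not tested except where the alternative itself removes probes or arrays. Under both other centrings, which were added after the data had been seen, no call and no direction of the 4 genes changed, but the split of higher and lower calls over all tested probes did. Centring on the median of all values gave 909 higher and 1336 lower on E2F3 +/- day 1 in place of 1164 and 1019, 661 and 1386 on WT day 3 in place of 873 and 1081, and for genotype 5 and 21 on day 1 in place of 17 and 16 and 16 and 15 over all times in place of 20 and 11. Centring on probes measured on all arrays gave 20 and 18 over all times. Without centring, 2 of 4 genes passed on E2F3 +/- day 4, Eno3 on E2F3 +/- day 1 was 0.03, and the splits were 1112 and 915 on WT day 3 and, for genotype on day 2, 294 and 399 in place of 359 and 279. Quantile normalization turned Actn3 on E2F3 +/- day 4 to -0.02 and gave genotype splits of 15 and 7 at lactation in place of 11 and 8, 6 and 17 on day 4 in place of 9 and 47, and 39 and 9 over all times, with 8 and 14 in the day 1 interaction in place of 9 and 10 and 7 and 11 in the day 3 interaction in place of 2 and 10. Where only probes measured on all arrays were kept, Eno3 alone was left of the 4 genes, and 1 gene passed on E2F3 +/- day 3, 0 on E2F3 +/- day 4, 1 on WT days 2, 3 and 4, 0 over all E2F3 +/- days and 1 over all WT days, a test that holds the values that chose the genes. With missing values set to the lowest ratio, 1 gene passed on E2F3 +/- day 3, 0 on day 4 and 0 over all E2F3 +/- days. In WT glands this setting lost Myh2 on day 2 (limma adjusted p = 0.0552). On WT day 3 it lost Eno3 and Myh2 (adjusted p = 0.0575 and 0.2) and gained Actn3 and Ak1 (adjusted p = 0.0335 and 0.0352). Under it Myh2 differed by -3.67 between genotypes on day 4, and the mean residual SD of the 4 genes was 2.63 in place of 1.51. Array quality weights, whose fit stopped before it had converged, gave 3 genes on E2F3 +/- day 2, 3 on E2F3 +/- day 4, 4 on WT day 3, 4 over all E2F3 +/- days, and, for genotype, 1 at lactation, 4 on day 3, 3 over all times and 1 in the day 4 interaction. Under these weights Eno3 was 0.19 on E2F3 +/- day 1 and -0.06 on WT day 1, and the genotype difference on day 4 was 0.09 for Eno3 and 0.31 for Ak1. A fit of only the groups compared gave 3 genes on E2F3 +/- day 2 and 4 on WT day 3. Same-numbered arrays did not deviate together (median r 0.009, against -0.007 for other numbers), and the fit with the replicate block gave 1 gene over all E2F3 +/- days and moved no other count of genes past 1.5 times.

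Leaving out 1 array at a time, 0 to 1 gene passed on E2F3 +/- day 2, 1 to 4 on E2F3 +/- day 3, 1 to 4 on E2F3 +/- day 4, 1 to 4 over all E2F3 +/- days, 0 to 4 on WT day 3 and 0 to 1 for genotype over all times. Each array was left out of the comparisons of its own group. E2F3 +/- day 4 replicate 3 was also left out of all others, added after the data had been seen, and gave the highest counts of E2F3 +/- days 2 and 3 and WT day 3. On E2F3 +/- day 1 the difference ran from -0.74 to 0.3 for Eno3 and from -0.29 to 1.2 for Myh2, and on E2F3 +/- day 4 from -1.52 to 2.44 for Actn3. On WT day 1 it ran from -0.41 to 0.85 for Eno3, -0.65 to 2.2 for Actn3, -0.92 to 2.86 for Myh2 and -0.02 to 0.39 for Ak1. The genotype difference ran from -0.3 to 3.47 for Myh2 on day 1 and -0.62 to 1.07 for Actn3 on day 2. On day 4 it ran from -2.93 to 1.44 for Eno3, -3.3 to 0.66 for Actn3 and -1.95 to 1.31 for Ak1. Signal over background is not in the deposited ratios, so values near the lowest cannot be weighed by it.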
